A study of Mus musculus with 16 samples.

Results

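Id1, Id2, Id3, Smad6, Smad7, Bmpr1a and Bambi were followed in RNA sequencing counts of 16 cultures of mouse small intestinal organoids. These 7 of the 49585 genes in the count table were chosen as a named set of BMP pathway genes, on values of these same 4 groups. Their levels and fold changes are therefore a description without a test. All 7 passed the filter on low counts that left 12559 genes. Organoids were grown from crypts of villin (V)-cre- Atg16l1 fl/fl mice (fl/fl) or of villin (V)-cre+ Atg16l1 fl/fl mice (ΔIEC), all aged 8 to 12 weeks and of a C57BL/6 background. The villin promoter drives the Cre recombinase in intestinal epithelial cells, so that ΔIEC cells lack the autophagy protein ATG16L1 and are also the cells that carry Cre. Each genotype was left untreated or received IL-22 at 10 ng/ml for 24 h, with 4 cultures in each of the 4 groups. By the labels each genotype is represented by 2 numbered organoid lines, each grown as 2 cultures with and 2 without IL-22, so that replicates 1 and 2 of a group belong to one line and replicates 3 and 4 to the other. No label says that cultures of a line were started separately, so that p-values rest on the spread between cultures of 2 lines, which may be technical. Every culture grew in medium with EGF, R-spondin 1 and Noggin, a secreted protein that binds and blocks BMPs. Gene counts summed to between 2135000 and 5574860 in a culture.

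BMP ligands bring together type I receptors, such as the one encoded by Bmpr1a, and type II receptors. The active complex phosphorylates SMAD1 and SMAD5, which bind SMAD4 and switch on target genes in the nucleus. The Id genes are classical targets. They encode helix-loop-helix proteins without a DNA-binding region that capture E proteins and so keep these from binding DNA with their tissue partners. Smad6 and Smad7 encode inhibitory SMADs, and Bambi a pseudoreceptor without a kinase. All 3 are themselves targets and damp the signal that induced them. In the intestine BMP activity is highest along the villus and low at the crypt base, where antagonists protect the stem cells.

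On GRCm38, Id1 (ENSMUSG00000042745) lies on chromosome 2 from 152736251 to 152737410 on the plus strand. Id2 lies on chromosome 12 from 25093799 to 25097140 on the minus strand, and Id3 on chromosome 4 from 136143497 to 136145755 on the plus strand. Smad6 spans chromosome 9 from 63953076 to 64022059 on the minus strand. Bmpr1a spans chromosome 14 from 34410734 to 34503341 on the minus strand. Exons of Bmpr1a share 290 bases with Gm17110, an antisense gene on the other strand. Since the strand setting of the counting is not given in the sources used here, reads in that stretch cannot be assigned with certainty. Gm17110 had 1 to 15 counts per culture, against 498 to 1322 for Bmpr1a.

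RefSeq promoter windows from 250 bases before to 50 bases after the start (GRCm38.p6) were at hand for 4 of the 7 genes. Those of Id2, Id3 and Smad6 are printed 5′ to 3′ because the first pair had IL-22 fold changes of opposite sign in fl/fl organoids and Smad6 is a feedback gene with fold changes near 0. They cover chr12:25096043-25096342 on the minus strand, chr4:136143572-136143871 on the plus strand and chr9:64022010-64022309 on the minus strand. The start is that of RefSeq. For Id2, Id3 and Bmpr1a the windows lie inside the gene bounds given above, so that this start is downstream of the 5′ end of the gene given there. Capitals mark matches on either strand to GGCGCC (a GC-rich element that SMAD1 and SMAD5 bind), CAGAC (the SMAD box), TTCNNNGAA (the element of STAT factors, which IL-22 activates) or GTCTAGAC. The last of these, a palindrome of the core SMAD4 recognises, was added after the windows had been seen.
Id2: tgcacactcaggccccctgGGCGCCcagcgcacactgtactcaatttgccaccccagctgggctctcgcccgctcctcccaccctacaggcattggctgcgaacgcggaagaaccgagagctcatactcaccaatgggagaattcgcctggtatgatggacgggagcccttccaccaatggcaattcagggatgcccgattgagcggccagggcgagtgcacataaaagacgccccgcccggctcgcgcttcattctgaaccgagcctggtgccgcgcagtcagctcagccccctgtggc
Id3: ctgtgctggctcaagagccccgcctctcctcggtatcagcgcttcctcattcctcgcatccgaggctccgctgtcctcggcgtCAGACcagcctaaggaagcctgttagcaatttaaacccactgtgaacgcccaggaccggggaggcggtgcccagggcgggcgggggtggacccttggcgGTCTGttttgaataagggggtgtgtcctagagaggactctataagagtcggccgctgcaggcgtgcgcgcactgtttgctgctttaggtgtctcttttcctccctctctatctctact
Smad6: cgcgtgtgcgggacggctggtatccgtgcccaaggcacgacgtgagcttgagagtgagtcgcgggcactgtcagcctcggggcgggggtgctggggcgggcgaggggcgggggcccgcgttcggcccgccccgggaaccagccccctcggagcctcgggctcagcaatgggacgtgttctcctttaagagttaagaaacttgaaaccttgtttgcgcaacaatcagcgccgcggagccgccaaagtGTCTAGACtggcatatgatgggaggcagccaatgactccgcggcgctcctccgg
The Id2 window held 1 GGCGCC, starting 231 bases before the start, and that of Bmpr1a held 1 as well. This motif was in 11.9% of the 32851 RefSeq windows of the same length. The Id3 window held 2 matches to CAGAC, a motif found in 49.6% of all windows. GTCTAGAC was in the Smad6 window, 4 bases before the start, and in 0.213% of all windows. None of the 4 windows held TTCNNNGAA, which was in 8.3% of all windows. CANNTG, the E-box that E proteins bind, occurred once in the Id2 window and once in the Smad6 window, and in 72.3% of all windows. These letters are a description of the windows and not evidence of binding.

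The cultures matched their labels. Atg16l1 had 91 to 276 counts in the fl/fl cultures and 1 to 21 in the ΔIEC cultures. The 21 counts were in replicate 2 of IL-22-treated ΔIEC organoids, which stood apart from 1 to 2 counts in the rest of that group, so the fold changes of the 7 genes with IL-22 in ΔIEC organoids are also given without it. Socs3, a feedback inhibitor induced by STAT3, was counted at 9.43 ± 2.66 CPM (counts scaled to library size, SD, n = 4) in untreated and 224.8 ± 39.6 CPM in treated fl/fl organoids, and at 8.88 ± 1.85 and 170.5 ± 17.7 CPM in ΔIEC organoids. All 7 markers of epithelium passed the filter. All 9 stromal markers had at most 3 counts in every culture, among them Grem1, and their summed level reached at most 1.87 CPM in a culture. Of the endothelial markers, Cdh5 and Kdr were at 0 in all cultures, and Pecam1 and Vwf had at most 11 and 10 counts.

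Id1 was the member with the largest difference between treated and untreated fl/fl organoids, about 2.29-fold (log2 fold change 1.20, SE 0.14). In untreated fl/fl organoids it was counted at 50.8, 58.2, 44.9 and 40.7 CPM in replicates 1 to 4, and with IL-22 at 105.7, 101.4, 113.8 and 127.3 CPM. The untreated ΔIEC cultures had 60.8, 53.6, 82.0 and 75.2 CPM, and the treated ones 108.5, 131.2, 142.3 and 156 CPM. Treated and untreated cultures did not overlap in either genotype. The difference in ΔIEC organoids was 2.01-fold (log2 fold change 1.01, SE 0.14), and the log2 value was 1.03 without the culture with 21 counts of Atg16l1. Untreated ΔIEC cultures were above the untreated fl/fl cultures in 15 of 16 pairs (log2 fold change 0.46, SE 0.14), but the groups overlapped. The Id1 response was present in each of the 4 lines, with mean log2 CPM higher by 0.92 and 1.48 in the fl/fl lines and by 1.06 and 0.92 in the ΔIEC lines.

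Id2, which is known for its part in lymphoid as well as epithelial cells, was lower with IL-22, with the larger fold change in ΔIEC organoids. In untreated fl/fl organoids it was counted at 38.3, 30.1, 31.3 and 30.8 CPM, and with IL-22 at 29.7, 29.5, 24.4 and 21.6 CPM. Levels in ΔIEC cultures were 30.4, 42.3, 59.5 and 41.5 CPM untreated, and 14.2, 10.5, 23.6 and 17.4 CPM with IL-22. In both genotypes every treated culture was below every untreated one, narrowly in fl/fl and widely in ΔIEC organoids. The log2 fold change was -0.32 (SE 0.20) in fl/fl and -1.38 (SE 0.21) in ΔIEC cultures, the latter 2.6-fold lower. Without the ΔIEC culture with 21 counts of Atg16l1 it was -1.19. Within lines the difference was -0.20 and -0.43 in fl/fl, and -1.51 and -1.27 in ΔIEC organoids, on the log2 CPM scale. The ΔIEC groups spread more than the fl/fl groups, with an SD of 0.39 untreated and 0.47 treated on that scale against 0.16 and 0.22.

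Id3, the close relative of Id1, was higher with IL-22 in fl/fl organoids and had nearly equal means in ΔIEC organoids. It was counted at 44.7, 35.2, 39.4 and 42.5 CPM in untreated and at 62.6, 72.5, 68.9 and 62.9 CPM in treated fl/fl organoids. Untreated ΔIEC cultures had 44.8, 49.2, 58.3 and 60.2 CPM, and treated ones 45.8, 46.9, 59.5 and 58.5 CPM. The fl/fl groups did not overlap, while the ΔIEC groups covered nearly the same range. All untreated ΔIEC cultures were above all untreated fl/fl cultures, the closest pair by a small margin, and with IL-22 all ΔIEC cultures were below all fl/fl cultures. The log2 fold change with IL-22 was 0.73 (SE 0.11) in fl/fl and 0.01 (SE 0.12) in ΔIEC organoids, or 0.07 without the ΔIEC culture with 21 counts of Atg16l1. Within lines it was 0.75 and 0.68 in fl/fl, and -0.02 and -0.01 in ΔIEC organoids. In ΔIEC organoids the second line lay above the first at 59.3 against 47.0 CPM untreated and 59.0 against 46.3 CPM with IL-22.

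**Figure D1:**
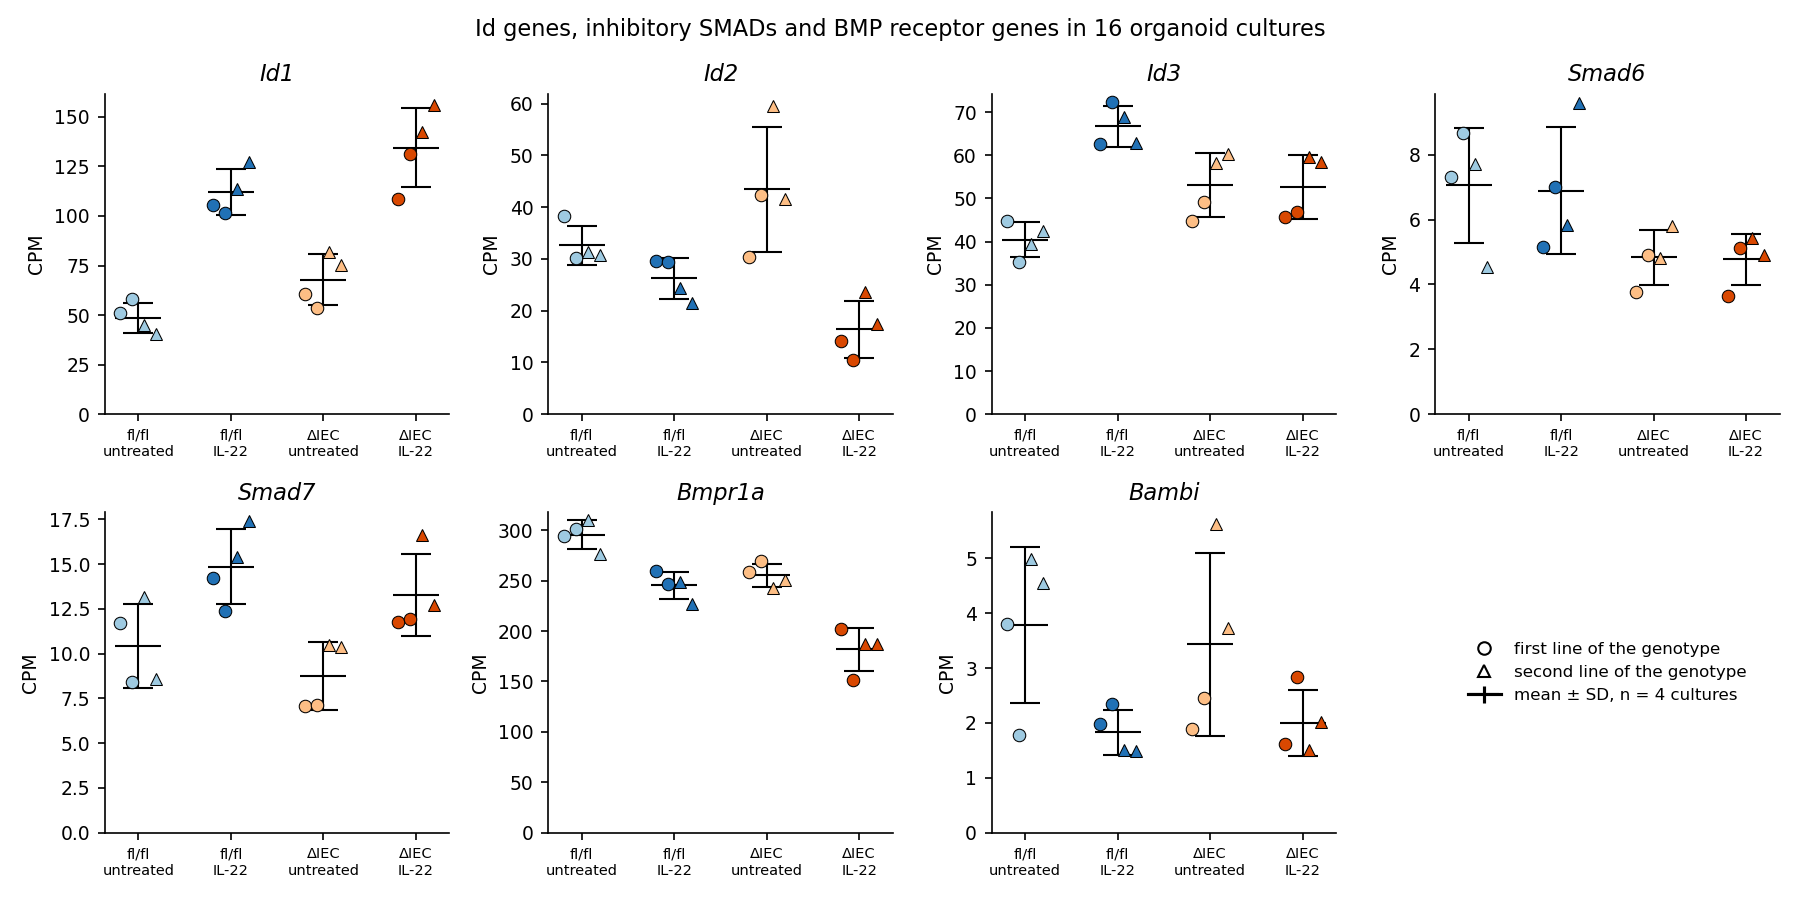
Normalized counts (CPM, vertical axes, each starting at 0) of the 7 genes in the 4 groups; each symbol is 1 culture, circles for the first and triangles for the second organoid line of the genotype, and black bars give the mean ± SD of 4 cultures. Id1 was higher with IL-22 in both genotypes, Id3 in fl/fl organoids, and Id2 and Bmpr1a were lowest in IL-22-treated ΔIEC organoids.

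The IL-22 effects on the 3 Id genes were set side by side between the genotypes. On the log2 scale, the IL-22 effect in ΔIEC organoids minus that in fl/fl organoids was -0.19 (SE 0.19) for Id1, -1.06 (SE 0.29) for Id2 and -0.72 (SE 0.16) for Id3. None of the 7 genes was past the threshold for this interaction (edgeR's quasi-likelihood test, Benjamini-Hochberg adjusted p under 0.01 over all genes), which 0.0159% of the genes tested passed. At an unadjusted p under 0.05 there were 2, against 7.26% of all genes, and DESeq2 gave 0. Without the ΔIEC culture with 21 counts of Atg16l1 the interaction values were -0.18 for Id1, -0.88 for Id2 and -0.66 for Id3. With the organoid line as a block the interaction values of Id2 and Id3 were -1.12 and -0.74 and both were past the threshold, which 0.446% of all genes then passed. Since the set was chosen with these values known, nothing is read from these counts.

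The inhibitory SMADs were scarce, and neither passed the threshold in any comparison of the main fit. Smad6, which mainly limits BMP signals, was counted at 7.31, 8.68, 7.71 and 4.55 CPM in untreated and 5.15, 7.01, 5.82 and 9.59 CPM in treated fl/fl organoids. The ΔIEC cultures had 3.77, 4.92, 4.83 and 5.82 CPM untreated and 3.65, 5.11, 5.44 and 4.92 CPM with IL-22. Treated and untreated groups overlapped in both genotypes. The log2 fold change with IL-22 was -0.03 (SE 0.24) in fl/fl and 0.03 (SE 0.27) in ΔIEC organoids, or 0.01 without the ΔIEC culture with 21 counts of Atg16l1. The fl/fl lines went opposite ways on the log2 CPM scale. The difference was -0.37 in the first, where both treated cultures were below both untreated ones, and 0.31 in the second. In the ΔIEC lines it was 0.00 and -0.03. ΔIEC means were below fl/fl means, with log2 fold changes of -0.56 (SE 0.26) untreated and -0.51 (SE 0.25) with IL-22, in groups that overlapped. The counts behind these values were 9 to 34 per culture.

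Smad7 (chromosome 18 from 75367529 to 75395935, plus strand), which limits both BMP and TGF-beta signals, was higher with IL-22 in both genotypes by similar amounts. It was counted at 11.7, 8.42, 13.2 and 8.56 CPM in untreated and 14.3, 12.4, 15.4 and 17.4 CPM in treated fl/fl organoids. Its levels in ΔIEC cultures were 7.07, 7.14, 10.5 and 10.4 CPM untreated and 11.8, 11.9, 16.6 and 12.7 CPM with IL-22. The ΔIEC groups did not overlap, and in fl/fl organoids 15 of 16 pairs had the treated culture higher. The log2 fold change was 0.54 (SE 0.19) in fl/fl and 0.65 (SE 0.20) in ΔIEC organoids, or 0.71 without the ΔIEC culture with 21 counts of Atg16l1. In each of the 4 lines both treated cultures were above both untreated ones.

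Bmpr1a, the type I BMP receptor of the set, had the smallest spread between cultures and was lower with IL-22 and lower in ΔIEC organoids. It was counted at 294.5, 300.9, 310.1 and 276.3 CPM in untreated and 259.3, 246.8, 248.2 and 227.1 CPM in treated fl/fl organoids. The cultures of ΔIEC organoids had 258.2, 269.5, 242.9 and 250.9 CPM untreated and 201.7, 151.7, 187.1 and 186.7 CPM with IL-22. Untreated fl/fl organoids were highest, treated ΔIEC organoids lowest, and neither group overlapped with any other. The treated fl/fl and untreated ΔIEC groups lay between them and overlapped with each other. The log2 fold change with IL-22 was -0.27 (SE 0.08) in fl/fl and -0.49 (SE 0.08) in ΔIEC organoids. Without the culture that had 21 counts of Atg16l1, which was also the lowest for Bmpr1a, it was -0.41. ΔIEC against fl/fl gave -0.21 (SE 0.08) untreated and -0.43 (SE 0.08) with IL-22, or -0.36 without that culture.

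Bambi (chromosome 18 from 3507923 to 3516404, plus strand) was at the lower end of what this depth measures, with 4 to 17 counts per culture. It was counted at 3.8, 1.79, 4.99 and 4.55 CPM in untreated and 1.98, 2.34, 1.5 and 1.5 CPM in treated fl/fl organoids. Those of ΔIEC organoids had 1.89, 2.46, 5.63 and 3.74 CPM untreated and 1.62, 2.84, 1.51 and 2.03 CPM with IL-22. Means were lower with IL-22 in both genotypes, but the groups overlapped. The log2 fold change was -0.998 (SE 0.39) in fl/fl and -0.65 (SE 0.40) in ΔIEC organoids, or -0.87 without the ΔIEC culture with 21 counts of Atg16l1. The ΔIEC value was -0.33 without replicate 3 of the untreated ΔIEC cultures. Within lines the difference lay in the second line of each genotype, with -1.36 in fl/fl and -1.15 in ΔIEC organoids, against -0.24 and 0.00 in the first lines.

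**Figure D2:**
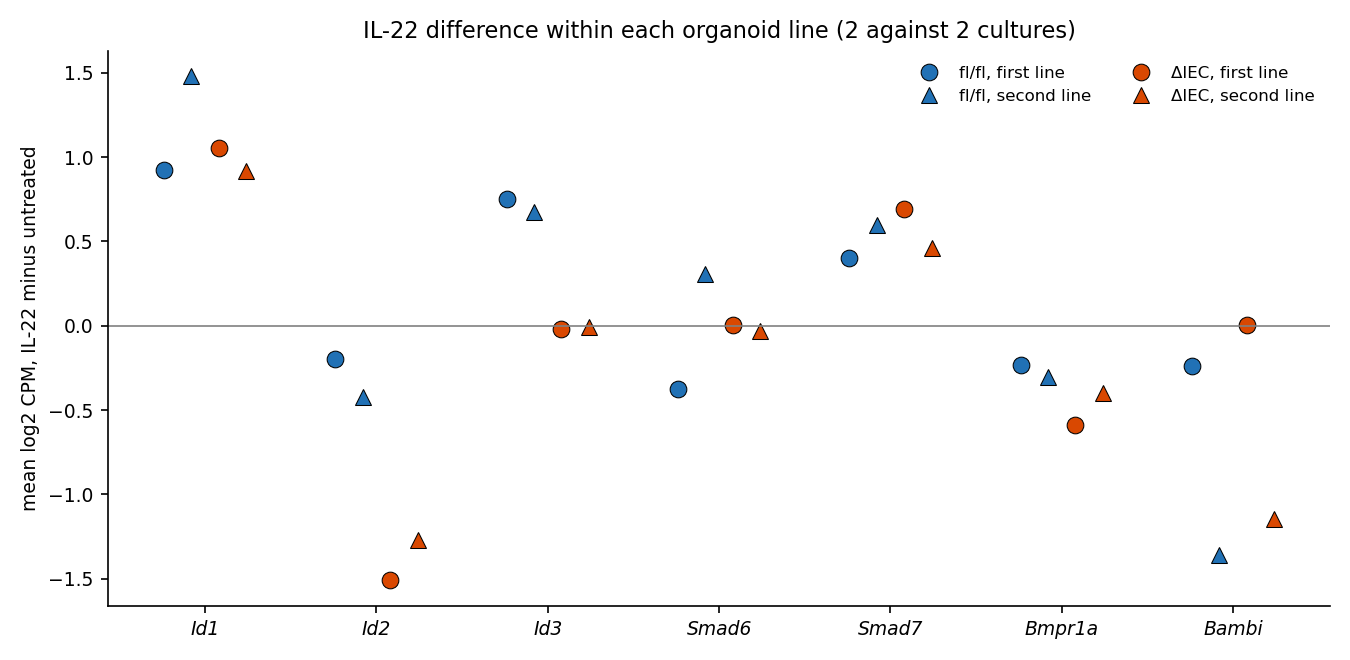
Difference in mean log2 CPM between 2 IL-22-treated and 2 untreated cultures (vertical axis) for each of the 7 genes within each organoid line; circles and triangles are the first and second line of a genotype, blue fl/fl and orange ΔIEC. Lines of 1 genotype lay close together for Id3 and Bmpr1a and farthest apart for Bambi, and the 4 lines shared a direction for Id1, Id2, Smad7 and Bmpr1a.

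Between genes, levels were compared per kilobase of exon. In untreated fl/fl organoids Bmpr1a (46.5 ± 2.25 CPM per kb, SD, n = 4) and Id1 (41.9 ± 6.56) were highest and overlapped, followed by Id3 (22.6 ± 2.30) and Id2 (13.4 ± 1.56). Smad7 (2.31 ± 0.52) and Smad6 (2.20 ± 0.55) overlapped at a lower level, and Bambi was lowest at 0.74 ± 0.28 CPM per kb. In untreated ΔIEC organoids Id1 (58.55 ± 11.2) came before Bmpr1a (40.2 ± 1.78), Id3 (29.7 ± 4.10) and Id2 (17.8 ± 4.93), with Smad7 at 1.94 ± 0.42, Smad6 at 1.51 ± 0.26 and Bambi at 0.68 ± 0.33 CPM per kb. With IL-22 the order in fl/fl organoids was headed by Id1 at 96.6 ± 9.83 CPM per kb, ahead of Bmpr1a at 38.6 ± 2.11 and Id3 at 37.3 ± 2.68, which overlapped. In ΔIEC organoids with IL-22, Id1 was at 116 ± 17.3 CPM per kb, Id3 at 29.4 ± 4.10 and Bmpr1a at 28.6 ± 3.35, and Id2 at 6.73 ± 2.27. Smad7 was at 3.29 ± 0.46 and 2.93 ± 0.51, Smad6 at 2.15 ± 0.61 and 1.49 ± 0.25, and Bambi at 0.36 ± 0.08 and 0.39 ± 0.12 CPM per kb in treated fl/fl and ΔIEC organoids. The ratio of these levels between genes depends on the exon lengths of the annotation.

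**Figure D3:**
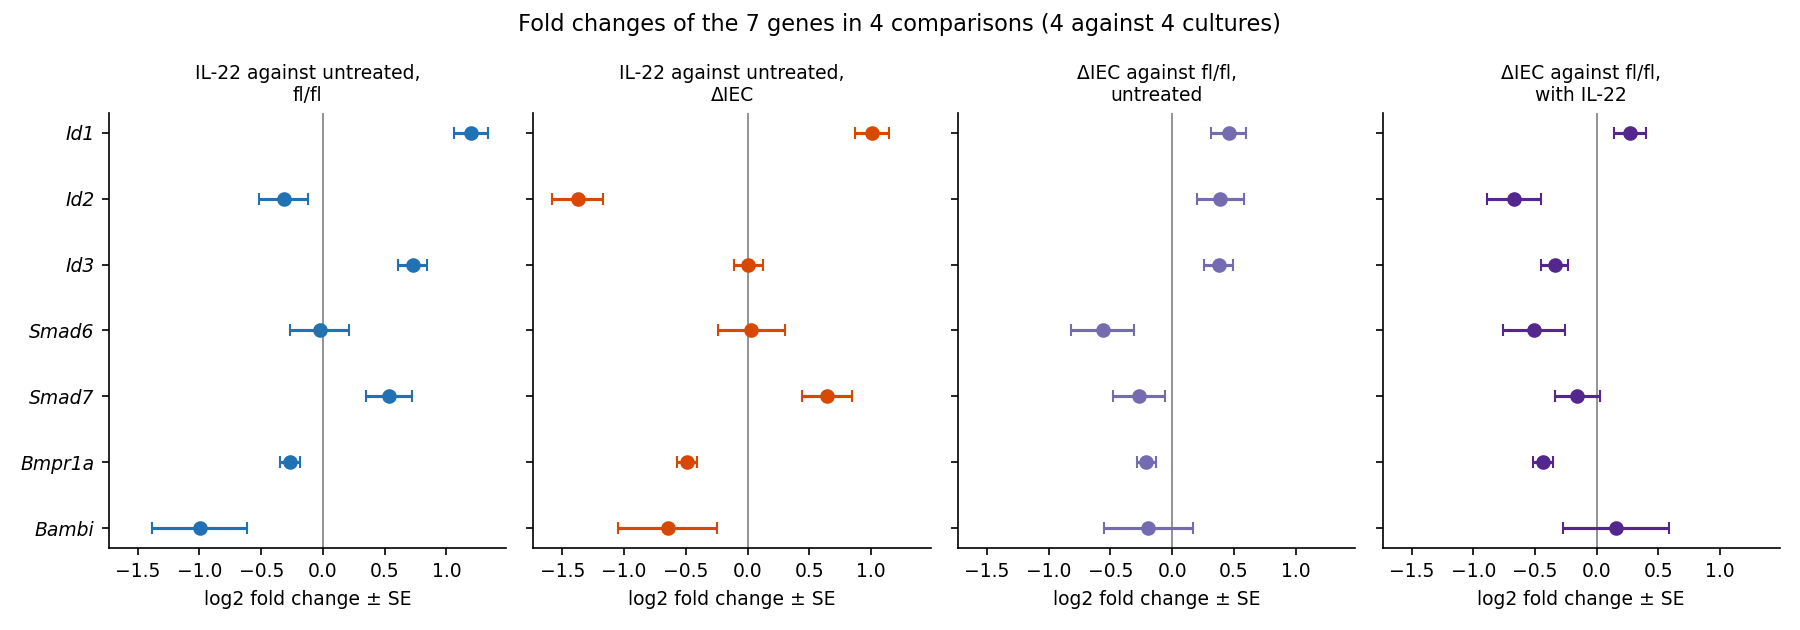
Log2 fold changes (horizontal axes) of the 7 genes in 4 comparisons of 4 against 4 cultures; bars are the SE of the fit. With IL-22 the fitted value of Id1 was 1.20 and 1.01 in fl/fl and ΔIEC organoids, and that of Id2 -0.32 and -1.38.

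Counted by the threshold, 2 of the 7 genes passed for IL-22 in fl/fl organoids (Id1 and Id3, both higher), where 20.8% of all genes passed, 10.6% higher and 10.2% lower. In ΔIEC organoids 3 passed (Id1 higher, Id2 and Bmpr1a lower), where 17.5% of all genes passed, 9.83% higher and 7.65% lower. None of the 7 passed between untreated genotypes, where 9.76% of all genes passed, 3.78% higher and 5.98% lower in ΔIEC organoids. At an unadjusted p under 0.05 there were 4 of 7, against 34.2% of all genes, and DESeq2 gave 0. With IL-22, Bmpr1a alone passed between genotypes, lower in ΔIEC organoids, where 19.8% of all genes passed, 9.91% higher and 9.84% lower. DESeq2 gave the same number of the 7 genes in each comparison. With IL-22 the count between genotypes was 2 without replicate 3 of treated ΔIEC organoids and 3 without the second ΔIEC line, where 2672 and 2121 of all genes passed. Between untreated genotypes it was 2 without the first ΔIEC line, where 445 of all genes passed. In fl/fl organoids the count for IL-22 was 3 without replicate 1 or 2 of treated ΔIEC organoids or without the first ΔIEC line. There 2796, 2613 and 2760 of all genes passed. Median log2 fold changes over the 7 genes were -0.026 and 0.008 for IL-22 in fl/fl and ΔIEC organoids, beside -0.045 and -0.007 over all genes. The comparisons within and between genotypes share groups and are not separate evidence.

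The remaining genes of the pathway were taken from 8 lists of 101 genes grouped by role. These lists, like the other gene lists below, were chosen with earlier results of these data known. The share of a list that passed, set beside that of all genes, is therefore a description and not a test of the list. Of the 101 genes, 50 had enough counts to be tested, by edgeR's quasi-likelihood test with Benjamini-Hochberg adjustment over all 12559 genes. IL-22 changed 15 of the 50 in fl/fl organoids, 8 higher and 7 lower, or 30% beside 20.8% of all genes. In ΔIEC organoids it changed 12, 4 higher and 8 lower, or 24% beside 17.5%. The median log2 fold change of the 50 genes was 0.101 and 0.085, beside -0.045 and -0.007 over all genes. Without the second line of the genotype 8 and 4 genes passed, and without the first ΔIEC line 6 passed in ΔIEC organoids. All 9 genes past the threshold in both genotypes changed in the same direction. No pathway gene passed the test of the interaction, 8 of the 50 had an unadjusted p under 0.05, against 7.26% of all genes, and DESeq2 gave 0. Between genotypes 7 genes differed in untreated organoids, 2 higher and 5 lower in ΔIEC, or 14% beside 9.76% of all genes. With IL-22 there were 9, 1 higher and 8 lower, or 18% beside 19.8%, no more than the share of all genes. With the organoid line as a block, 20 and 14 of the 50 passed for IL-22 in fl/fl and ΔIEC organoids, where 3837 and 3198 of all genes passed. After the cultures were summed by line, which leaves 2 samples a group, 0 and 3 pathway genes passed between untreated and treated genotypes, and 2 and 3 for IL-22 in fl/fl and ΔIEC organoids. Of 67 calls in the named pathway, partner and villus genes, 57 were lost after that summing, 42 when some line and 26 when some culture was left out. The counts between genotypes were 4 and 4 without the first ΔIEC line, and 4 and 5 without the first fl/fl line. The count with IL-22 was also 5 without replicate 2 of IL-22-treated ΔIEC organoids, the culture with 21 counts of Atg16l1.

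Most BMP ligands were at or near 0. Of 14 ligands 3 were tested, and Bmp4, a main stromal ligand of the intestine, had at most 2 counts in a culture. Bmp7, which encodes a ligand made by epithelia, fell with IL-22 from 45.2 ± 6.80 to 27.0 ± 5.32 CPM in fl/fl organoids and from 23.3 ± 5.28 to 9.46 ± 1.33 CPM in ΔIEC organoids. The log2 fold changes were -0.77 (adjusted p = 0.00078) and -1.32 (adjusted p = 3.7e-05). Bmp7 was also lower in ΔIEC than in fl/fl organoids, untreated (log2 fold change -0.95, adjusted p = 0.00049) and with IL-22 (-1.50, adjusted p = 1.6e-05). Bmp2 did not pass in any comparison, at 14.6 ± 2.36 and 20.8 ± 4.35 CPM in fl/fl and 11.1 ± 4.65 and 16.2 ± 8.73 CPM in ΔIEC organoids. Of 11 TGF-beta and activin ligands Tgfb1 was the only one tested, and it did not pass in any comparison. Bmp8b, a further BMP ligand, was lower in ΔIEC organoids with IL-22 (log2 fold change -0.79, adjusted p = 0.0088) and had -0.36 untreated (adjusted p = 0.29), and the call was lost without any 1 of 9 cultures.

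Of 15 further receptors and coreceptors 9 were tested. Bmpr2, the type II partner of the Bmpr1a product, rose with IL-22 in both genotypes. Its level was 71.4 ± 10.9 CPM untreated and 127.5 ± 11.0 CPM treated in fl/fl organoids (0.83 on the log2 scale, adjusted p = 2.1e-05), and 55.1 ± 8.73 and 89.1 ± 8.63 CPM in ΔIEC organoids (0.68, adjusted p = 0.00028). Bmpr1a had the opposite sign, with means lower in treated organoids. Rgmb, a BMP coreceptor at the cell surface, fell from 68.1 ± 9.99 to 32.3 ± 3.11 CPM in the fl/fl and from 69.4 ± 7.82 to 29.3 ± 2.61 CPM in the ΔIEC cultures (log2 fold changes -1.08 and -1.24, adjusted p = 7.6e-07 and 1.7e-07). Acvr1c, a type I receptor for other ligands of the family, fell in fl/fl organoids (-1.82, adjusted p = 0.00037) and had -1.64 in ΔIEC organoids (adjusted p = 0.037). It was lower in untreated ΔIEC organoids (-1.98, adjusted p = 0.00081) and had -1.81 between genotypes with IL-22 (adjusted p = 0.016), at 0.56 to 7.12 CPM in group means.

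Of 16 secreted antagonists 3 were tested. Nog, which encodes Noggin, had at most 1 count in a culture, in medium to which Noggin was added. Twsg1, a BMP-binding protein, fell with IL-22 in fl/fl (log2 fold change -0.45, adjusted p = 0.0016) and ΔIEC organoids (-0.41, adjusted p = 0.0044), the latter lost without any 1 of 4 cultures. Nbl1, another BMP antagonist, had log2 fold changes of 1.01 and 1.06 and did not pass (adjusted p = 0.016 in both).

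Of 6 further SMADs, which carry the signal, 5 were tested. For IL-22, 2 of them (40%) passed in fl/fl organoids, beside 20.8% of all genes, and 0 in ΔIEC organoids, beside 17.5%. Smad4, the common partner, rose from 93.2 ± 3.37 to 127 ± 4.41 CPM in fl/fl organoids (log2 fold change 0.44, adjusted p = 3.9e-05), and was at 99.6 ± 3.97 and 114.4 ± 4.81 CPM in ΔIEC organoids (0.20, adjusted p = 0.033). Smad1, which BMP receptors phosphorylate, rose from 44.5 ± 2.92 to 59.2 ± 2.72 CPM in fl/fl organoids (0.41, adjusted p = 0.0059), and had a log2 fold change of 0.31 in ΔIEC organoids (adjusted p = 0.039), and the fl/fl call was lost without any 1 of 6 cultures. Smad5 had log2 fold changes of -0.27 and 0.00 and did not pass. Smad3, of the TGF-beta branch, was lower in ΔIEC than in fl/fl organoids with IL-22 (-0.57, adjusted p = 0.0027) and had -0.27 untreated (adjusted p = 0.17). That call was lost without replicate 1 or 2 of treated ΔIEC organoids.

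**Figure D4:**
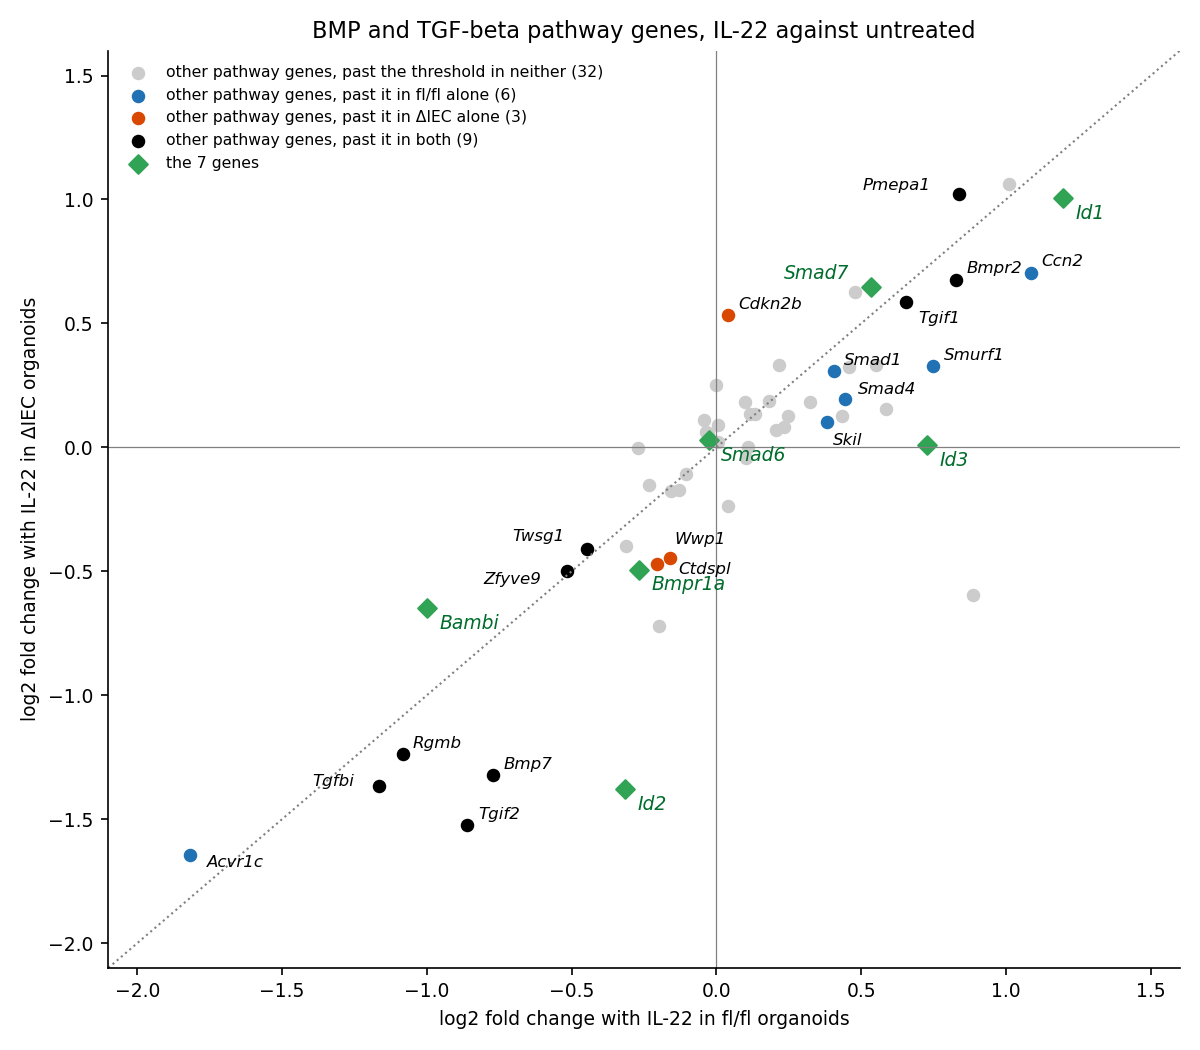
Log2 fold change with IL-22 in fl/fl organoids (horizontal axis) against that in ΔIEC organoids (vertical axis) for the 50 other pathway genes tested (dots, coloured by the threshold they passed) and the 7 genes of the set (green diamonds); the dotted line marks equal change. Of the 50 genes, 9 passed in both genotypes, 6 in fl/fl alone, 3 in ΔIEC alone and 32 in neither, and Id1, Id2, Id3 and Bmpr1a lay below the dotted line.

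Among 22 tested intracellular regulators, 4 rose and 2 fell with IL-22 in fl/fl organoids, and 2 rose and 4 fell in ΔIEC organoids. These were 27.3% of the list in each genotype, beside 20.8% and 17.5% of all genes. Pmepa1, which takes receptor-activated SMADs out of the pathway, rose in both (log2 fold changes 0.84 and 1.02, adjusted p = 0.00037 and 3.7e-05). Tgif1, a SMAD corepressor, rose in both (0.65 and 0.58, adjusted p = 0.00014 and 0.00054), whereas its relative Tgif2 fell (-0.86 and -1.52, adjusted p = 1.0e-05 and 3.4e-08). Tgif2 went from 98.3 ± 5.81 to 54.0 ± 5.20 CPM in fl/fl and from 67.8 ± 8.20 to 23.4 ± 5.06 CPM in ΔIEC organoids. Zfyve9, a SMAD anchor at endosomes, fell in both (-0.52 and -0.50, adjusted p = 0.002 and 0.005), in calls lost without any 1 of 2 and 3 cultures. Smurf1, a ubiquitin ligase for BMP SMADs, rose in fl/fl organoids (0.75, adjusted p = 0.0002) and had 0.33 in ΔIEC organoids (adjusted p = 0.079). Skil, a SMAD corepressor, rose in fl/fl organoids (0.38, adjusted p = 0.0022) and had 0.10 in ΔIEC organoids (adjusted p = 0.45). In ΔIEC organoids the phosphatase gene Ctdspl (-0.47, adjusted p = 0.0009) and the ubiquitin ligase gene Wwp1 (-0.45, adjusted p = 0.0042) fell, with -0.20 and -0.16 in fl/fl organoids (adjusted p = 0.096 and 0.27). The call of Wwp1 was lost without any 1 of 3 cultures. Between genotypes, 1 of the 22 was lower in untreated ΔIEC organoids and 3 with IL-22. That was 4.55% and 13.6%, beside 9.76% and 19.8% of all genes. Tgif2 was lower untreated (-0.55, adjusted p = 0.0022) and with IL-22 (-1.21, adjusted p = 2.6e-06). With IL-22 Skil (-0.33, adjusted p = 0.0068) and Tob2 (-0.36, adjusted p = 0.0019) were also lower. Tob2 had -0.08 untreated (adjusted p = 0.49). The calls with IL-22 were lost under 0, 12 and 5 of 26 alternatives, and the untreated call of Tgif2 under 4.

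None of the 8 further BMP-SMAD targets listed, Id4 and Msx1 among them, had enough counts to be tested, with at most 10 counts in a culture. Of 8 TGF-beta-SMAD targets 7 were tested, and 1 rose and 1 fell with IL-22 in each genotype. That was 28.6% in fl/fl and ΔIEC organoids, beside 20.8% and 17.5% of all genes. Ccn2, a matricellular protein gene, rose in fl/fl organoids (log2 fold change 1.09, adjusted p = 0.0097) and had 0.70 in ΔIEC organoids (adjusted p = 0.0497). The cell cycle inhibitor gene Cdkn2b rose in ΔIEC organoids (0.53, adjusted p = 0.0052) and had 0.04 in fl/fl organoids (adjusted p = 0.84). Leaving out 1 culture ended the call of Ccn2 for 10 cultures and that of Cdkn2b for 4. Between untreated genotypes 2 of the 7 were higher in ΔIEC organoids (Fn1 and Thbs1) and 2 lower, Tgfbi and Cdkn2b (-0.55, adjusted p = 0.0073), the latter lost without any 1 of 6 cultures. That was 57.1% of the list, beside 9.76% of all genes, but all 4 calls were lost once counts were pooled within lines. The call of Cdkn2b was lost under 10 of 26 alternatives. Fn1, Thbs1 and Tgfbi each had 25 alternatives. When at least 10 counts were required in every culture, 3 genes over all pathway lists passed between untreated genotypes, in place of 7. The share of this list is therefore sensitive to low counts and to the line. With IL-22, 28.6% passed between genotypes, beside 19.8%. Tgfbi, a secreted matrix protein, fell with IL-22 in both genotypes (log2 fold changes -1.17 and -1.37, adjusted p = 9.5e-05 and 0.00042) and was lower in ΔIEC organoids, untreated (-1.23, adjusted p = 0.00029) and with IL-22 (-1.43, adjusted p = 0.00028). Fn1 (fibronectin) was higher in ΔIEC organoids, at 3.14 ± 0.56 against 16.1 ± 3.32 CPM untreated and 3.44 ± 1.45 against 20.8 ± 7.11 CPM with IL-22 (log2 fold changes 2.36 and 2.48, adjusted p = 4.1e-05 and 4.6e-06). Thbs1 (thrombospondin 1) was higher in untreated ΔIEC organoids (2.26, adjusted p = 6.9e-05) and had 0.78 with IL-22 (adjusted p = 0.039). The members of this list did not move one way.

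The proteins that ID proteins capture were followed through 11 genes of E proteins and their tissue partners, of which 10 were tested. With IL-22, 1 rose and 2 fell in fl/fl organoids, and 0 rose and 3 fell in ΔIEC organoids, or 30% in each beside 20.8% and 17.5% of all genes. Tcf3, which encodes the E proteins E12 and E47, fell with IL-22 in both genotypes (log2 fold changes -0.31 and -0.35, adjusted p = 0.008 and 0.0034). The fl/fl call of Tcf3 was lost under 17 of 27 alternatives and the ΔIEC call under 7. Tcf4 rose in fl/fl organoids (0.75, adjusted p = 0.0025) and had 0.18 in ΔIEC organoids (adjusted p = 0.5), and its fl/fl call was lost without replicate 2 of the untreated group. Hes1, a Notch target, fell in both (-0.49 and -0.67, adjusted p = 0.00052 and 3.7e-05). Atoh1, which sets the secretory lineage, did not pass for IL-22 but was lower in ΔIEC organoids, untreated (-0.76, adjusted p = 0.0027) and treated (-0.69, adjusted p = 0.003). The first call was lost without replicate 1 of untreated ΔIEC organoids, and the second without replicate 2 of either treated group. Ascl2, a stem cell factor that is also among the stem cell markers, was higher in ΔIEC organoids (1.23 untreated and 1.21 with IL-22, adjusted p = 2.1e-05 and 1.8e-05). Its IL-22 fold changes were similar in both genotypes. They were -0.55 in fl/fl organoids, where it did not pass (adjusted p = 0.015), and -0.57 in ΔIEC organoids, where it fell (adjusted p = 0.0045). The latter call was lost under 8 of 27 alternatives, 5 of them with 1 culture left out. Bhlhe40 was lower in ΔIEC than in fl/fl organoids, untreated (-0.74, adjusted p = 0.00031) and with IL-22 (-0.75, adjusted p = 0.00012). For IL-22 against untreated it had 0.26 in fl/fl and 0.26 in ΔIEC organoids and did not pass.

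Genes of the villus tip, where BMP activity is known to be high, did not move one way. Of 7 genes, 4 rose and 1 fell with IL-22 in fl/fl organoids, or 71.4% beside 20.8% of all genes, and 2 rose and 1 fell in ΔIEC organoids, or 42.9% beside 17.5%. Klf4, a differentiation factor, rose from 46.1 ± 9.69 to 105.8 ± 5.66 CPM in fl/fl and from 44.8 ± 11.2 to 78.5 ± 25.2 CPM in ΔIEC cultures. Its log2 fold changes were 1.20 and 0.85 (adjusted p = 8.1e-05 and 0.0029), and the ΔIEC call was lost without any 1 of 4 cultures, replicates 1 and 2 of the untreated and 3 and 4 of the treated group. Egfr rose in both (1.18 and 0.81, adjusted p = 5.7e-05 and 0.0026), but in ΔIEC organoids the value was 0.35, and did not pass, without the second line, and the call was lost without any 1 of 3 cultures. Nt5e and Slc28a2, of purine metabolism, rose in fl/fl organoids (1.45 and 1.79, adjusted p = 0.0045 and 0.00067) and had 0.59 and 0.98 in ΔIEC organoids (adjusted p = 0.4 and 0.087). These ΔIEC values were 0.03 and 0.50 without replicate 3 of the treated cultures and -0.59 and 0.02 without the second line, and the fl/fl call of Nt5e was lost without any 1 of 3 cultures. Apoa4, a lipid carrier, fell in both (-1.72 and -1.24, adjusted p = 0.00035 and 0.004). Its ΔIEC call was lost without any 1 of the same 4 cultures as for Klf4, and its ΔIEC value was -2.22 without the first and -0.79 without the second line. Between genotypes 0 of the 7 passed untreated and 3 with IL-22, or 42.9% beside 19.8% of all genes. Nt5e (-1.93, adjusted p = 0.00082) and Slc28a2 (-1.32, adjusted p = 0.0061) were lower in treated ΔIEC organoids, and Apoa4 (1.29, adjusted p = 0.0045) was higher. The calls of Slc28a2 and Apoa4 were lost without any 1 of 6 and 4 cultures, and all 3 with the cultures of a line summed.

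Markers of cell types moved with the same comparisons. With IL-22, 5 of 7 enterocyte markers fell in fl/fl and 3 in ΔIEC cultures, where 10.2% and 7.65% of all genes fell. Between genotypes 1 of the 7 was higher in untreated and 2 in treated ΔIEC organoids. The summed level of 5 stem cell markers was, untreated and with IL-22, 497 ± 113 and 248 ± 15.5 CPM in fl/fl, and 1000 ± 68.7 and 404 ± 65.3 CPM in ΔIEC organoids. Olfm4 was the most abundant of them except in treated fl/fl organoids, where it was at 24.3 CPM and Axin2 at 85.8 CPM. Of these, 2 fell in fl/fl and 4 in ΔIEC cultures. Between genotypes 3 were higher in untreated ΔIEC organoids, and with IL-22 3 were higher and 1 lower. Of all genes, 3.78% were higher and 5.98% lower in untreated ΔIEC organoids, and 9.91% and 9.84% with IL-22. The 7 Paneth cell markers summed to 6783 ± 1173 and 8260 ± 1064 CPM in fl/fl, and 3668 ± 497 and 4243 ± 374 CPM in ΔIEC organoids, with Defa24 the most abundant in fl/fl and Lyz1 in ΔIEC organoids, and 4 of them were lower in untreated and 6 in treated ΔIEC than in fl/fl organoids. The 6 goblet cell markers summed to 2539 ± 674 and 2310 ± 507 CPM in fl/fl, and 1621 ± 250 and 1085 ± 299.7 CPM in ΔIEC organoids, and 3 of them were lower in untreated and 4 in treated ΔIEC organoids. The 7 epithelial markers summed to 8020 ± 1145 and 11541 ± 974 CPM in fl/fl, and 7684 ± 777 and 9817 ± 1655 CPM in ΔIEC organoids, with Krt8 the most abundant. The 5 enteroendocrine markers summed to 475 ± 135 and 567 ± 83.1 CPM in fl/fl, and 298 ± 68.4 and 330.1 ± 122 CPM in ΔIEC organoids, and the 4 tuft cell markers to 16.2 ± 3.13, 23.3 ± 3.24, 17.3 ± 2.11 and 25.4 ± 8.55 CPM in the same order. The higher tuft sums with IL-22 lay in Avil, at 3.45 and 12.8 CPM in fl/fl, and 5.00 and 16.95 CPM in ΔIEC organoids. Of 3 tuft cell markers tested, the log2 fold change with IL-22 was positive in 2 in fl/fl and in 1 in ΔIEC organoids. The 7 immune markers summed to at most 19 CPM in a culture, with Csf1r the most abundant, and 4 of them had at most 3 counts in every culture. Fewer cells of a type and less RNA per cell cannot be told apart in these bulk cultures, and the part of these shifts in the values of the 7 genes was not tested.

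For each of the 7 genes, the genes with the most similar profile of log2 CPM over the 16 cultures are given by Pearson's r, as a description in which all points share libraries and groups. Birc3, an inhibitor of apoptosis, was closest to Id1 (r = 0.97), followed by Anxa1 (0.96). Rffl (0.91) and Slc52a2 (0.91) were closest to Id2, and Actn1 (0.86) and the transcription factor gene Foxa1 (0.85) to Id3. Cflar, which encodes the caspase-8 regulator cFLIP, was closest to Smad7 (0.93), and Tnfrsf11b (0.91) came next. Mep1a, a brush border protease gene, and Deptor were closest to Bmpr1a (0.97 and 0.96). Tob1, which was among the intracellular regulators listed, was closest to Smad6 (0.84), and Whrn to Bambi (0.84), both genes with few counts.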

How the data were processed

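RNA of 16 organoid cultures in 4 groups of 4 was sequenced. The authors used cutadapt for trimming, TopHat2 for alignment to GRCm38 and HTSeq for counting, and they deposited its raw counts, not normalized. The annotation release is not given in the sources used here. Identifiers were matched without version to GENCODE mouse release 21 (49326 of 49585 genes, 99.5%), from which exon lengths and positions were taken. Reads on genes were 36.3% to 38.3% of those in the table. The 5 lines that name no gene were used for depth only, among them reads on no gene (38.0% to 40.1%) and reads aligned to several places (21.5% to 24.2%), so that reads shared by near-identical genes were not counted.

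Counts were filtered with filterByExpr (12559 genes) and scaled by TMM, and 1 fit of 4 group means over all cultures was tested with the two-sided quasi-likelihood test of edgeR 4.0.16 in R 4.3.3, with p-values adjusted by Benjamini-Hochberg and called under 0.01. CPM used TMM library sizes and log2 CPM a prior count of 2. The SE was derived from the log2 fold change and its F statistic. The steps were tested on simulated data without differences between organoid lines, so that error rates in the presence of such differences were not tested. Groups came from the sample labels. The members and the gene lists were chosen with earlier results of these data known. Named genes were all members, genes of the pathway, partner and villus lists past the threshold between 2 groups (up to 30, by smallest adjusted p), markers and label checks, and the most similar genes by Pearson's r. Bmp2, Smad5, Nbl1, Bmp4, Nog, Id4, Msx1, Tob1, Tgfb1, Smad1, Ccn2, Cdkn2b and Bmp8b were named outside that rule, after their values were seen. The summed level of the enterocyte markers is not reported here.

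Lines were taken to pair cultures because the labels name them. Across genes, deviations from the group mean correlated between treated and untreated cultures of 1 line at 0.26 to 0.44 in fl/fl and 0.06 to 0.32 in ΔIEC organoids, and between cultures of different lines at -0.44 to -0.22 and -0.35 to -0.08. Deviations cancel within a group by construction, so that the negative values follow from the positive ones and are not further evidence of pairing. Alternatives were DESeq2 1.42.0, RLE scaling, other filters on low counts, the line as a block, the compared groups alone, cultures of a line summed, a threshold of 0.05, and each culture and line left out.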

Additional observations from a re-analysis of the deposited data

Results flagged for a closer look

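Of 196 groups of 4 cultures, in 49 genes, 11 had a culture far from the others by Dixon's criterion, which chance alone gives in about 1 of 20 groups. Id2 was at 38.3 CPM in untreated fl/fl replicate 1, against 30.1 to 31.3 CPM in the others. Smurf1 was at 50.7 CPM in IL-22-treated fl/fl replicate 3, against 51.8 to 51.9 CPM, a small gap in a narrow group. Acvr1c was at 10.4 CPM in untreated fl/fl replicate 4, against 5.84 to 6.35 CPM. Slc28a2 was at 18.1 CPM in untreated ΔIEC replicate 3, against 6.84 to 8.31 CPM, and Reg3g, an antimicrobial lectin gene induced by IL-22, at 20.9 CPM in the same culture, against 11.1 to 12.5 CPM. Skil was at 63.8 CPM in IL-22-treated fl/fl replicate 1, against 71.9 to 72.0 CPM, and at 48.6 CPM in IL-22-treated ΔIEC replicate 2, against 58.0 to 58.5 CPM. Atg16l1 was at 5.97 CPM in that last culture, against 0.289 to 0.810 CPM in the rest of its group. Bmp2 was at 27.3 CPM in IL-22-treated fl/fl replicate 1, against 17.98 to 19.15 CPM, and Nbl1 at 16.1 CPM in untreated fl/fl replicate 1, against 5.89 to 6.89 CPM. Smad5 was at 50.2 CPM in IL-22-treated ΔIEC replicate 1, against 35.0 to 35.8 CPM.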

How the results depend on the processing

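Under the alternatives the 7 genes had 911 fold changes, of which 0 past the threshold reversed and 25 moved by more than the spread between cultures, all of these with a line left out. With the cultures of a line summed, 543, 635, 0, 10 and 188 genes passed for IL-22 in fl/fl, IL-22 in ΔIEC, the interaction, untreated genotypes and treated genotypes, in place of 2608, 2195, 2, 1226 and 2481, and 2, 3, 0, 0 and 3 pathway genes in place of 15, 12, 0, 7 and 9; fewer samples entered that fit. At an adjusted p under 0.05, 4057, 3500, 2559 and 4168 genes passed in the comparisons other than the interaction, with 19, 13 and 18 pathway genes in the last 3. The interaction passed in 11 genes with DESeq2, 1 with RLE scaling, 80 without a filter, 1 with at least 10 counts in every culture and 56 with the organoid line as a replicate block, where Id2 and Id3 were among them. Between untreated genotypes 1840 genes passed without a filter, and 3 pathway genes with at least 10 counts in every culture. Of the 7 genes, 2, 3, 0, 0 and 1 passed in the 5 comparisons, against 1, 2, 0, 0 and 0 after summing cultures by line, 4, 4, 0, 2 and 3 at an adjusted p under 0.05, and 2, 3, 2, 1 and 2 without a filter. Without a filter, 2930, 2566, 80, 1840 and 2955 of all genes passed. The cause of these changes was not tested. Leaving out a culture gave 2030 to 2796, 1675 to 2266, 0 to 3, 633 to 1428 and 1751 to 2672 genes, and 12 to 18, 9 to 13, 0, 5 to 7 and 5 to 11 pathway genes; 633 was without untreated ΔIEC replicate 1 and 5 of 9 without treated ΔIEC replicate 2. Leaving out a line gave 1083 to 2760, 913 to 2491, 0 to 4, 445 to 1639 and 950 to 2121 genes, and 8 to 17, 4 to 13, 0, 4 to 9 and 4 to 11 pathway genes. The line is nested in genotype, so that it could not be a block between genotypes, and the block changed no other count by over 1.5 times. With the block, 7 values of named genes that had not passed in the main fit were past the threshold. Depth limits Bambi and Smad6, whose counts were 4 to 34 per culture.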
